A study of Homo sapiens with 12 samples.

Results

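The genes of mitochondrial and peroxisomal fatty acid oxidation were examined in RNA-seq counts from MDA-MB-468 and HCC1187, cell lines of triple-negative breast cancer, after knockdown of the long non-coding RNA SOX9-AS1. The set holds 37 genes of 60675 in each count table, listed by gene symbol from the known enzymes, carriers and receptors of the pathway. No measured value enters the rule for a member, but the set was drawn up with earlier results of these data known. All 37 symbols were found in both tables. They fall into 7 role groups, with 8 genes of carnitine transfer and uptake, 7 acyl-CoA dehydrogenases, 7 later enzymes of the mitochondrial spiral, 5 auxiliary enzymes of unsaturated fatty acids, 5 peroxisomal enzymes, 3 electron carriers and 2 nuclear receptors.

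The study asked what SOX9-AS1 does to the transcriptome of these cells. The groups were HCC1187 with sh-SOX9-AS1, HCC1187 with sh-CONTROL, MDA-MB-468 with sh-SOX9-AS1 and MDA-MB-468 with sh-CONTROL, with 3 libraries in each. Cells of both shRNA arms were transfected for 48 h, and the control shRNA, sh-LacZ, targets a bacterial gene. HCC1187 cells grew in RPMI-1640 and MDA-MB-468 cells in DMEM, both with fetal bovine serum. Each line is a single established line, the labels call both basal-like, and the labels name no shRNA sequence. The labels do not say that replicates were separate cultures, so p-values measure the spread between these libraries, which may be technical. Libraries are named S1 to S12 by the number in their column names.

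Fatty acids enter beta-oxidation as acyl-CoA. Long chains cross the mitochondrial membranes as carnitine esters, made by CPT1 on the outer membrane, carried by SLC25A20 and turned back into acyl-CoA by CPT2. Each turn of the spiral then runs through an acyl-CoA dehydrogenase, a hydratase, a hydroxyacyl-CoA dehydrogenase and a thiolase, releases acetyl-CoA and passes electrons through ETF to the respiratory chain. Peroxisomes shorten very long and branched chains with their own enzymes, and the receptors PPARA and PPARD switch on many of these genes in liver, heart and muscle. In tumours the pathway is studied as a supply of ATP and NADPH.

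Only lane 1 of 3 lanes was used, and library totals in it ran from 6026376 to 10160040 counts, with 20265 to 23915 genes detected. Levels are given in CPM, the counts of a gene relative to its library total scaled by TMM factors over all 12 libraries, and levels of different genes are compared only as CPM per kb of gene length. SOX9-AS1 itself had 1.16, 0.697 and 0.796 CPM in HCC1187 sh-SOX9-AS1 libraries, against 2.32, 1.41 and 1.74 CPM in HCC1187 sh-CONTROL libraries, and passed the test there (log2 fold change -1.08 ± 0.36 SE, adjusted p = 0.0349). It had few counts there, 8, 5 and 9 in knockdown and 24, 13 and 17 in control libraries, so the fall is imprecise. In MDA-MB-468 it had 5.54, 5.03 and 5.57 CPM in sh-SOX9-AS1 libraries, against 6.04, 7.28 and 6.54 CPM in sh-CONTROL libraries. The groups did not overlap, but the difference of -0.30 ± 0.20 did not pass (adjusted p = 0.417). One MDA-MB-468 knockdown library, S4, stood apart from its group. Over 16328 genes its log CPM correlated at 0.9906, 0.9918 and 0.9949 with the controls S1, S2 and S3, and at 0.9772 and 0.9740 with the knockdown libraries S5 and S6. Its SOX9-AS1 level of 5.54 CPM lay between those of S5 and S6. Fold changes of the knockdown in MDA-MB-468 are therefore given with and without S4. S4 was singled out by expression values of these same libraries, so p-values without it cannot be taken at face value. Of 8 basal markers, KRT5, KRT6A, KRT6B and KRT14 averaged at most 0.0646 CPM in each HCC1187 group, whereas FOXC1 averaged 137 CPM in HCC1187 sh-SOX9-AS1 libraries and 182 CPM in sh-CONTROL libraries.

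The promoters of 4 loci are shown first because the comparisons turn on these genes. CPT2 and ECHS1 rose with the knockdown in HCC1187 and their effects differed between the lines, HADHA and HADHB start on either side of 1 short stretch, and CPT1A fell in MDA-MB-468 once S4 was left out. RefSeq's table (GRCh38.p14) held 38 start sites for 28 of the 37 genes. Each line gives the 250 bases upstream of a start site, 5′ to 3′ on the strand of the gene, with each match to the GC box GGGCGG or its reverse complement in capitals. The gene coordinates in the text are those of GENCODE, whose gene bodies begin further upstream at all 4 loci. The windows of CPT2, ECHS1 and HADHB therefore lie upstream of the RefSeq start but inside the GENCODE gene, and that of CPT1A lies partly inside it.
CPT2, chr1:53196574-53196823 (+): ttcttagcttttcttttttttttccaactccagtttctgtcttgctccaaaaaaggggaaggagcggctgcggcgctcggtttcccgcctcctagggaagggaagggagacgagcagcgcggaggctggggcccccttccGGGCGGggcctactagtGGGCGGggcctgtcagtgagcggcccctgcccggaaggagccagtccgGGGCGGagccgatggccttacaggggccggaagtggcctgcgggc
ECHS1, chr10:133373355-133373604 (-): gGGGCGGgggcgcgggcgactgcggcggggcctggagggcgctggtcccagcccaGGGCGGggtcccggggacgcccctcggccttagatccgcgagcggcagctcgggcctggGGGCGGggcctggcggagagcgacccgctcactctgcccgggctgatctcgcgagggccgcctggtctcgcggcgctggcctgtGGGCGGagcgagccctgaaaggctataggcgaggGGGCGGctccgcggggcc
HADHA and HADHB, on the strand of HADHB, chr2:26244689-26244938 (+): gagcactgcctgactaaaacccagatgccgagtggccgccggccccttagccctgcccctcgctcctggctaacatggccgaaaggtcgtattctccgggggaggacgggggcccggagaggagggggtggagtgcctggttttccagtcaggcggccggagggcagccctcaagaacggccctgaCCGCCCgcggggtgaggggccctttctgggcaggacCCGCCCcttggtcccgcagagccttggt
CPT1A, chr11:68844278-68844527 (-): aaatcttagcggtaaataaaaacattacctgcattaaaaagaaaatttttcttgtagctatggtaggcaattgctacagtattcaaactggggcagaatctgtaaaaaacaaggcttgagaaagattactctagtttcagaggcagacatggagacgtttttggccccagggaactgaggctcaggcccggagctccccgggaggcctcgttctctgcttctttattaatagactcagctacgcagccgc
The ECHS1 window held 5 GC boxes and the CPT2 window 3, the window between HADHA and HADHB 2, and the CPT1A window none. GC content was 79.6% in the ECHS1 window, 65.2% in that of CPT2, 69.2% between HADHA and HADHB and 44.4% in that of CPT1A. Across the pathway 31 of 38 windows held a GC box on either strand (81.6%), against 14973 of 35116 windows of all genes (42.6%). The letters AGGTCA, the half-site of nuclear receptors such as the PPARs, were found on either strand in 1 window of the pathway, that of ACAD10 (2.63%), against 12.1% of all windows. CCAAT was present in 11 pathway windows (28.9%) and in 32% of all. No motif searched contains another, and a match or its absence describes only the letters of these windows.

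In HCC1187 a part of the pathway rose with SOX9-AS1 knockdown. Of 34 genes that passed the filter on low counts, 8 rose and 2 fell, and 24 did not pass the test. All genes tested gave 9.78% higher and 13.1% lower calls. The median log2 fold change was 0.18 over the 34 genes and 0.01 over all 14970 genes. The rises were CPT1C and CPT2 of carnitine transfer and ACADS, ACADM and ACADVL of the first dehydrogenation. Hydration, the peroxisomal route and electron transfer had 1 rise each, ECHS1, EHHADH and ETFB. The falls were ACADSB and HADHA. None of the 34 genes changed by more than 2-fold.

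**Figure D1:**
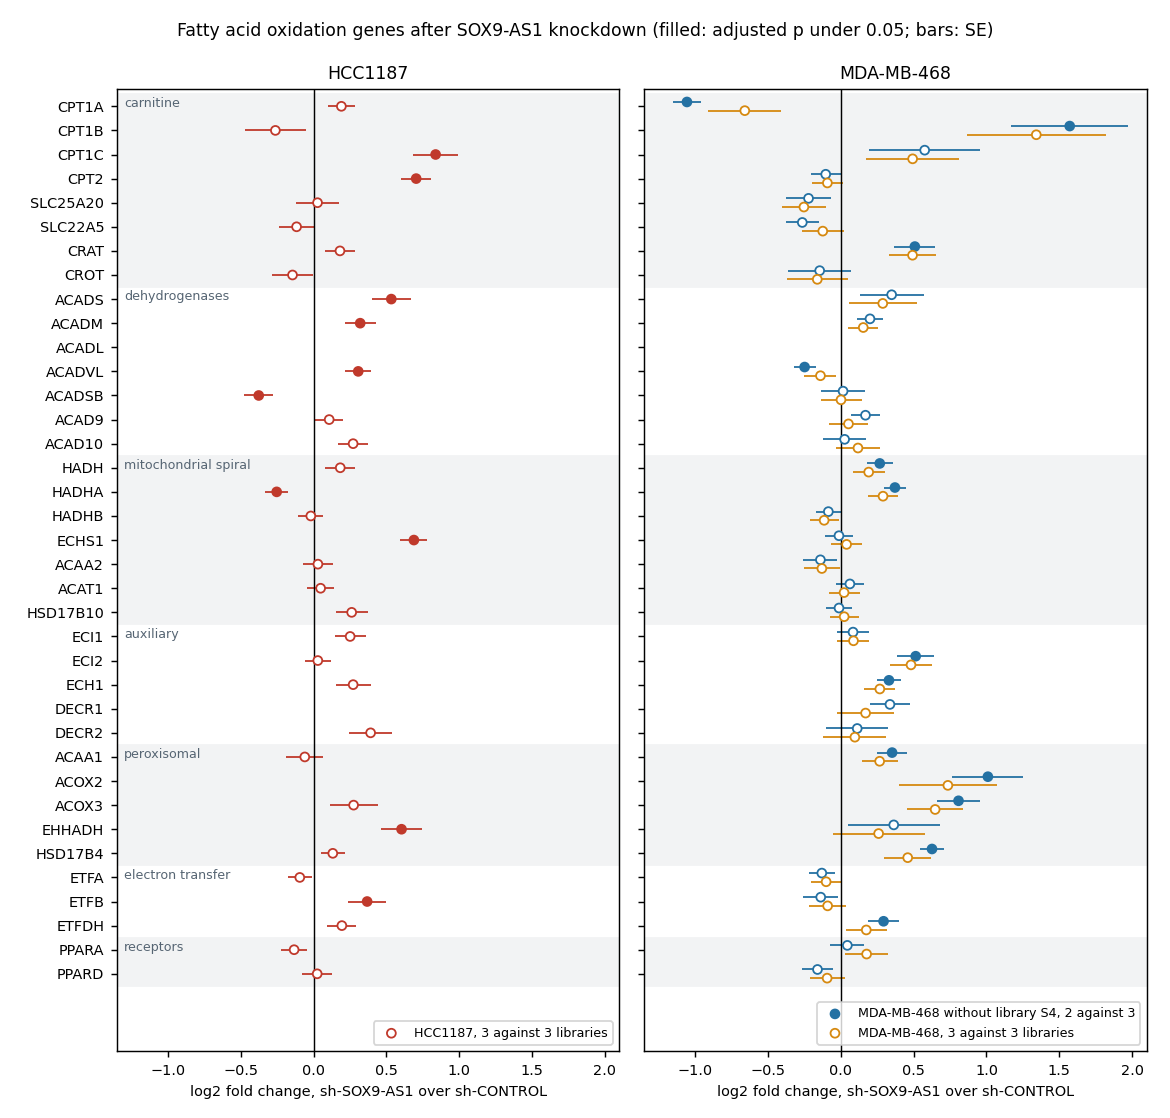
Log2 fold change of sh-SOX9-AS1 over sh-CONTROL for each gene of the pathway in HCC1187 (left) and MDA-MB-468 (right, blue without library S4 and orange with all 6 libraries), with bars for the standard error and filled points for an adjusted p under 0.05. In HCC1187 8 genes are filled to the right of zero and 2 to the left, and in MDA-MB-468 no orange point is filled while 13 blue points are. Genes without a point did not pass the filter on low counts.

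Among the carnitine genes, CPT2, the inner-membrane transferase that frees acyl-CoA in the matrix (chr1:53196429-53214197, GRCh38), had 60.2, 50.2 and 52.7 CPM in HCC1187 sh-SOX9-AS1 libraries, against 34.6, 31.8 and 32.8 CPM in sh-CONTROL libraries. The lowest knockdown library lay well above the highest control, and the fold was 1.63 (log2 fold change 0.70 ± 0.10 SE, adjusted p = 2.86e-05). CPT1C, the form of CPT1 best known from neurons and the endoplasmic reticulum (chr19:49690898-49713731), had 14.8, 14.4 and 13.7 CPM in sh-SOX9-AS1 libraries, against 7.17, 7.24 and 9.34 CPM in sh-CONTROL libraries. It showed the highest fold of the pathway in this line, 1.79 (log2 fold change 0.84 ± 0.15, adjusted p = 0.000396). CPT1A, the widely expressed form that controls entry of long chains, had 56.3, 51.8 and 52.4 CPM in sh-SOX9-AS1 libraries and 48.2, 44.6 and 46.7 CPM in sh-CONTROL libraries. Its groups did not overlap either, but the difference of 0.19 ± 0.09 did not pass (adjusted p = 0.149). The carrier SLC25A20, the plasma membrane carnitine transporter SLC22A5, the short-chain transferase CRAT, the peroxisomal transferase CROT and the muscle form CPT1B had log2 fold changes between -0.26 and 0.18, none past the test.

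Of the acyl-CoA dehydrogenases, which take the first step of each turn and are named by chain length, 3 of the 6 tested rose and 1 fell. All genes gave 9.78% higher and 13.1% lower calls. Each of these dehydrogenase calls was lost in at least 1 alternative setting, and the 3 rises in a joint fit of all 12 libraries. ACADS, for short chains, had 31.6, 21.7 and 24.7 CPM in HCC1187 sh-SOX9-AS1 libraries, against 18.8, 17.4 and 17.03 CPM in sh-CONTROL libraries (log2 fold change 0.53 ± 0.13, adjusted p = 0.00569). ACADM, for medium chains, had 66.6, 68.3 and 61.4 CPM in sh-SOX9-AS1 libraries and 57.2, 55.5 and 43.0 CPM in sh-CONTROL libraries (0.32 ± 0.11, adjusted p = 0.0338). ACADVL, for very long chains, had 162, 138 and 148 CPM in sh-SOX9-AS1 libraries and 118, 113 and 129 CPM in sh-CONTROL libraries (0.31 ± 0.09, adjusted p = 0.0144). In all 3 genes the groups were apart, with a narrow gap in ACADM and ACADVL. ACADSB, which acts on short branched chains from isoleucine, went the other way, with 46.1, 40.8 and 43.8 CPM in sh-SOX9-AS1 libraries against 61.2, 56.0 and 51.3 CPM in sh-CONTROL libraries (-0.38 ± 0.10, adjusted p = 0.0086). ACAD9, also an assembly factor of complex I, and ACAD10 had log2 fold changes of 0.11 and 0.27 without passing. ACADL, the long-chain form, was close to the detection limit, with 1 to 9 counts per HCC1187 library, and was not tested.

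The later steps of the spiral split. ECHS1, the short-chain enoyl-CoA hydratase (chr10:133362480-133373689), had 118, 104 and 113 CPM in HCC1187 sh-SOX9-AS1 libraries, against 76.0, 67.4 and 63.0 CPM in sh-CONTROL libraries. All 3 knockdown values exceeded all controls, with a fold of 1.61 (log2 fold change 0.69 ± 0.09, adjusted p = 1.31e-05). On the scale of CPM per kb ECHS1 was the most abundant gene of the pathway in HCC1187, at a mean of 87.5 in sh-SOX9-AS1 libraries and 53.9 in sh-CONTROL libraries. HADHA, the alpha subunit of the trifunctional protein, which carries the hydratase and dehydrogenase for long chains (chr2:26190635-26244726), had 156, 157 and 163 CPM in sh-SOX9-AS1 libraries and 184, 184 and 195 CPM in sh-CONTROL libraries. The groups were apart, with the knockdown lower (-0.25 ± 0.08, adjusted p = 0.0266). HADHB, the beta subunit with the thiolase (chr2:26243170-26290468), had 97.2, 102 and 104 CPM in sh-SOX9-AS1 libraries and 101, 97.9 and 106 CPM in sh-CONTROL libraries (-0.02 ± 0.08, adjusted p = 0.899). The subunits form 1 complex and their genes start 307 bases apart on opposite strands in RefSeq, and whether the pair differed from each other was not tested. The hydroxyacyl-CoA dehydrogenases HADH and HSD17B10 and the thiolases ACAA2 and ACAT1 had log2 fold changes from 0.03 to 0.26, none past the test.

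**Figure D2:**
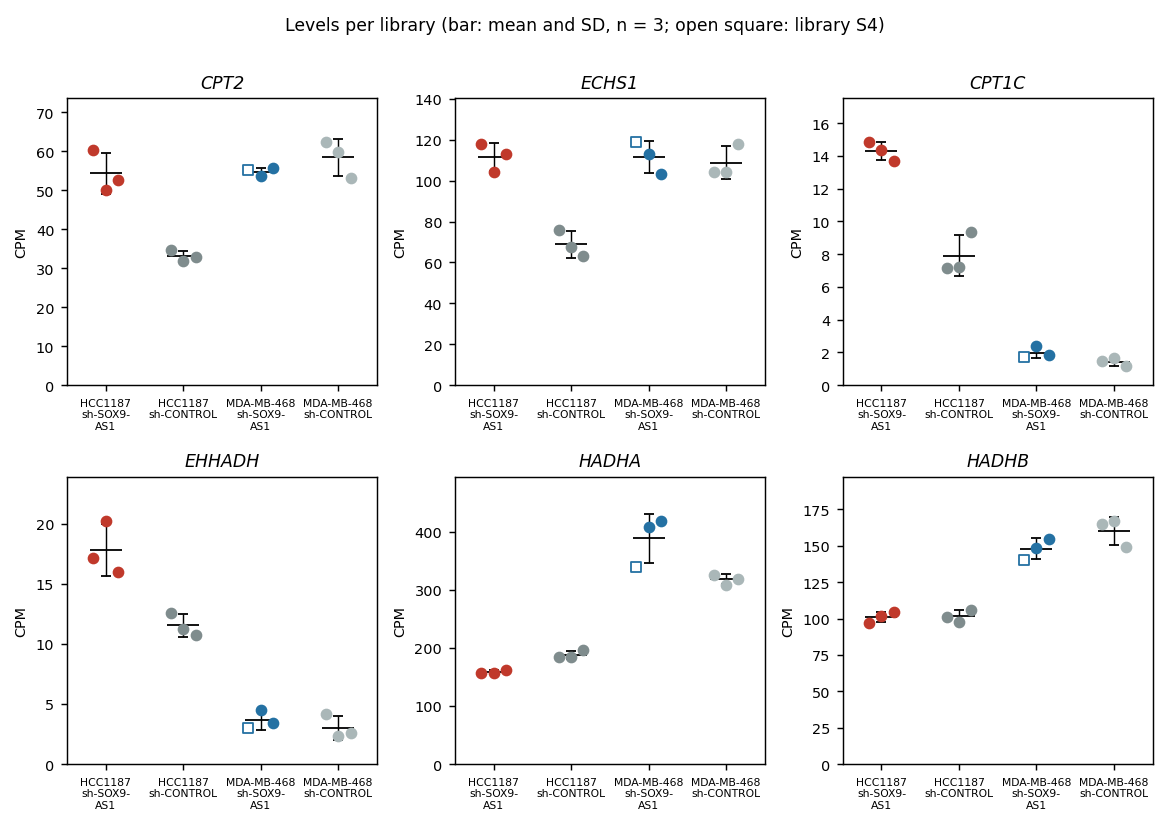
Level in CPM of CPT2, ECHS1, CPT1C, EHHADH, HADHA and HADHB in each of the 12 libraries, with the mean and SD of each group (n = 3) and library S4 as an open square. CPT2 and ECHS1 were higher in HCC1187 sh-SOX9-AS1 libraries than in HCC1187 sh-CONTROL libraries, and in MDA-MB-468 the groups overlapped for both.

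None of the auxiliary enzymes, which shift or reduce double bonds of the chain so that unsaturated fatty acids can enter the spiral, passed in HCC1187. ECI1, ECI2, ECH1 and DECR2 all had positive values, from 0.03 to 0.39, with adjusted p of 0.0584 for DECR2 and 0.0942 for ECI1. In the peroxisome EHHADH, the bifunctional enzyme of the classical route (chr3:185190624-185281990), rose, with 17.2, 20.2 and 16 CPM in sh-SOX9-AS1 libraries against 12.6, 11.2 and 10.8 CPM in sh-CONTROL libraries (0.60 ± 0.14, adjusted p = 0.00349). Its groups were apart, while the thiolase ACAA1, the oxidase ACOX3 and the other bifunctional enzyme HSD17B4 had log2 fold changes of -0.06, 0.28 and 0.13 without passing. ETFB, the beta subunit of the electron carrier ETF, had 17.02, 16.6 and 18.1 CPM in sh-SOX9-AS1 libraries and 14.0, 12.4 and 13.4 CPM in sh-CONTROL libraries (0.37 ± 0.13, adjusted p = 0.0443). Its partner ETFA was at -0.09 and ETFDH, which hands the electrons to ubiquinone, at 0.19, neither past the test. PPARA was at -0.13 and PPARD at 0.03, so neither receptor passed.

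Summed over all 37 genes the level was 511, 466 and 495 CPM per kb in HCC1187 sh-SOX9-AS1 libraries, against 438, 412 and 426 CPM per kb in sh-CONTROL libraries. The sums of the spiral enzymes were 247, 224 and 239 CPM per kb in sh-SOX9-AS1 libraries and 207, 192 and 197 CPM per kb in sh-CONTROL libraries, and ECHS1 supplied most of that gap. Electron carriers and receptors had overlapping sums. Calls that were lost under some settings were those of ETFB in 9 of 11 alternatives, HADHA in 6, ACADM in 4, ACADVL in 3, and ACADS and ACADSB in 1 each, whereas CPT2, ECHS1, CPT1C and EHHADH passed in all 11. Without scaling factors 12 genes rose and 1 fell, and without library S7 6 rose and none fell. Summed luminal markers ran from 254 to 274 CPM in sh-SOX9-AS1 libraries and from 310 to 322 CPM in sh-CONTROL libraries, and basal markers from 197 to 212 CPM and from 233 to 260 CPM in the same order of groups. Markers of hepatocytes, myocytes, adipocytes, leukocytes and fibroblasts summed to 62.3 to 73.0 CPM in sh-SOX9-AS1 libraries and 59.4 to 68.4 CPM in sh-CONTROL libraries, with 7 of the 10 under 1 CPM in every library. The part of these differences in the results was not tested, and in bulk RNA fewer cells of a type and less RNA per cell cannot be told apart.

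For the lists around the pathway in HCC1187, the shares to set beside each count are those of all genes, 9.78% higher and 13.1% lower. Uptake and activation genes gave 3 rises and no fall among 11 tested, led by the fatty acid transporter SLC27A4 (log2 fold change 0.48 ± 0.11, adjusted p = 0.00289). The control by malonyl-CoA and AMPK gave 1 rise and 2 falls among 10, counts near the shares of all genes. MLYCD, which degrades the CPT1 inhibitor malonyl-CoA, had 16.3, 10.9 and 13.5 CPM in sh-SOX9-AS1 libraries, against 8.33, 8.86 and 8.21 CPM in sh-CONTROL libraries (0.67 ± 0.16, adjusted p = 0.00435). PRKAA2 and PRKAB2, a catalytic and a regulatory subunit of AMPK, fell by 0.65 and 0.74 on the log2 scale (adjusted p = 8.26e-05 and 8.63e-05). Peroxisomal partners and assembly factors gave 5 rises and no fall among 21, among them PEX7, the import receptor for a small class of matrix enzymes (0.79 ± 0.15, adjusted p = 0.000438), and PHYH, the phytanoyl-CoA hydroxylase imported by it (0.46 ± 0.10, adjusted p = 0.00162). Branched-chain and odd-chain enzymes gave 3 rises among 15. PPAR partners and targets gave 1 fall among 10, and general mitochondrial genes 3 falls and no rise among 17, led by the mitochondrial transcription factor TFAM (-0.47 ± 0.10, adjusted p = 0.00155).

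In MDA-MB-468 no gene of the pathway passed when all 6 libraries were used. Of 36 genes tested, 8 had an unadjusted p under 0.05 in edgeR's quasi-likelihood test and DESeq2 also called none. With the same libraries 5 genes of the pathway passed without a filter on low counts, CPT1A, CPT1B, CRAT, ACOX3 and HSD17B4, and 1 passed in a joint fit of all 12 libraries, ECI2. Over all genes the calls numbered 1 in the fit reported, 283 with DESeq2, 1441 without a filter and 887 in the joint fit. Among all 13638 genes 0% were called higher and 0.00733% lower. The biological coefficient of variation, the relative spread between replicates, was 0.161 with S4 and 0.0778 without it. Without S4, 11 of 36 genes rose and 2 fell, against 20% higher and 20.7% lower among all 13947 genes of that fit. The rises were CPT1B, CRAT, HADH, HADHA, ECI2, ECH1, ACAA1, ACOX2, ACOX3, HSD17B4 and ETFDH, and the falls were CPT1A and ACADVL. The fit without S4 rests on 2 knockdown libraries, and S4 was left out because its expression resembled the controls. Leaving out S1, S2, S3, S5 or S6 instead gave 0 calls over all genes.

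CPT1A (chr11:68754620-68844410) had 280, 147 and 143 CPM in MDA-MB-468 sh-SOX9-AS1 libraries S4, S5 and S6, against 321, 318 and 263 CPM in sh-CONTROL libraries. S4 fell among the controls and the other libraries at about the same low level, so that the groups overlapped with S4 and were far apart without it. The log2 fold change was -0.66 ± 0.25 with all libraries (adjusted p = 0.227) and -1.06 ± 0.10 without S4 (adjusted p = 9.63e-07). CPT1B, by contrast, was a low gene, with 2.22, 3.35 and 5.42 CPM in sh-SOX9-AS1 libraries and 2.35, 0.824 and 1.03 CPM in sh-CONTROL libraries. S4 lay below the highest control and S5 and S6 above all controls. CPT1B had log2 fold changes of 1.34 ± 0.48 with all libraries (adjusted p = 0.211) and 1.57 ± 0.40 without S4 (adjusted p = 0.00588). CPT1B overlaps the readthrough gene CHKB-CPT1B on the same strand, so its counts are uncertain. CRAT had 85.8, 98.9 and 79.9 CPM in sh-SOX9-AS1 libraries and 52.7, 57.7 and 78.0 CPM in sh-CONTROL libraries, apart even with S4 (0.49 ± 0.16, adjusted p = 0.208, and 0.51 ± 0.14 without S4, adjusted p = 0.00996). CPT2 had log2 fold changes of -0.09 and -0.10 in these fits and did not pass.

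The peroxisomal group had the most calls for its size, with 4 of its 5 enzymes higher without S4, against 20% of all genes. None of the 5 passed in the reported fit of all 6 libraries. The peroxisomal transferase CROT, counted with the carnitine genes, had a log2 fold change of -0.15 without S4 and did not pass. HSD17B4, the bifunctional enzyme of branched and very long chains (chr5:119452443-119637199), had 166, 236 and 266 CPM in MDA-MB-468 sh-SOX9-AS1 libraries, against 168, 157 and 161 CPM in sh-CONTROL libraries. Its log2 fold change was 0.46 ± 0.16 with all libraries (adjusted p = 0.211) and 0.63 ± 0.08 without S4 (adjusted p = 3.75e-05). ACOX3, an oxidase of branched chains, had 15.8, 23.9 and 23.7 CPM in sh-SOX9-AS1 libraries and 14.8, 12.1 and 13.6 CPM in sh-CONTROL libraries (0.65 ± 0.19, adjusted p = 0.205, and 0.81 ± 0.15 without S4, adjusted p = 0.000476). ACOX2, the oxidase of bile acid intermediates, had 3.17, 6.43 and 7.59 CPM in sh-SOX9-AS1 libraries and 3.92, 3.43 and 2.95 CPM in sh-CONTROL libraries (0.73 ± 0.34, adjusted p = 0.279, and 1.01 ± 0.24 without S4, adjusted p = 0.00414). ACAA1, the peroxisomal thiolase, had 44.5, 56.9 and 52.2 CPM in sh-SOX9-AS1 libraries and 43.4, 43.8 and 40.5 CPM in sh-CONTROL libraries (0.27 ± 0.12, adjusted p = 0.284, and 0.35 ± 0.10 without S4, adjusted p = 0.0135). In each of these 4 genes S4 was inside the control range or just above it, and S5 and S6 lay above all controls. EHHADH, which rose in HCC1187, had 3.01, 4.47 and 3.41 CPM in sh-SOX9-AS1 libraries and 4.14, 2.34 and 2.57 CPM in sh-CONTROL libraries and did not pass in either fit. The summed peroxisomal level was 27.4, 39.0 and 41.3 CPM per kb in sh-SOX9-AS1 libraries, against 27.6, 25.5 and 25.7 CPM per kb in sh-CONTROL libraries.

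**Figure D3:**
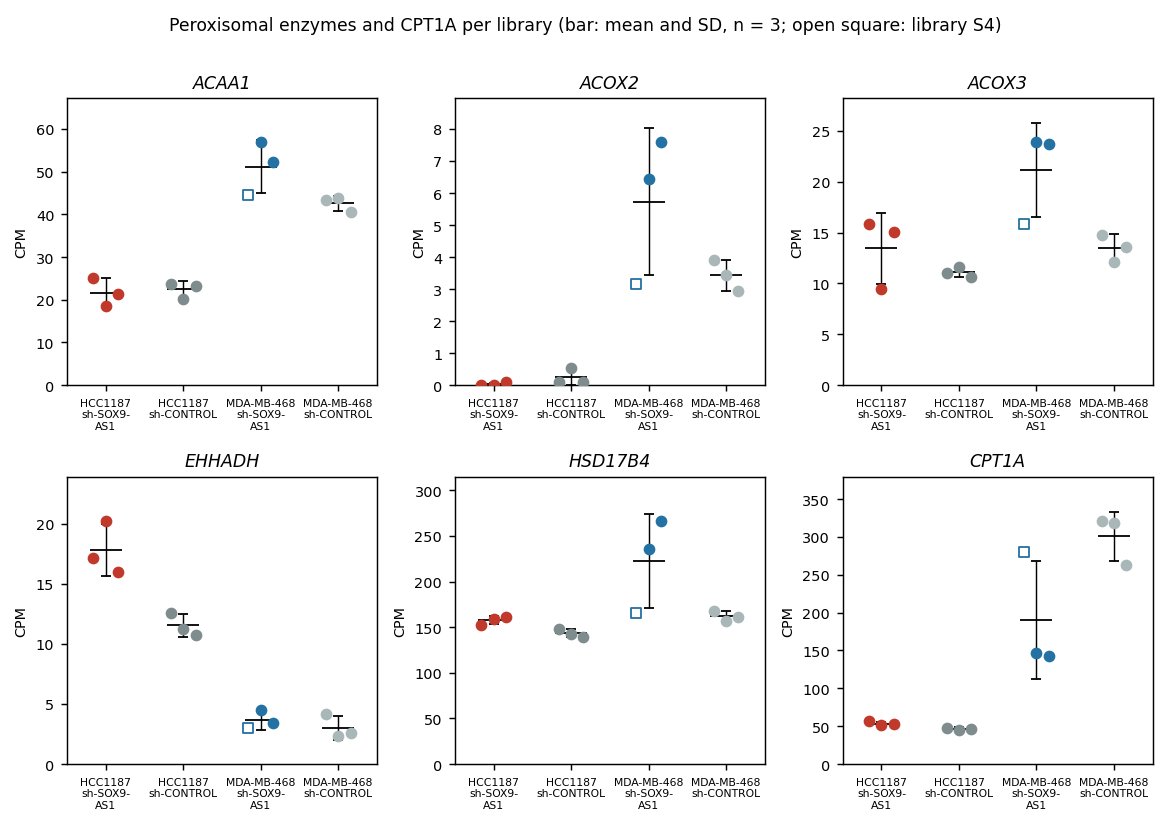
Level in CPM of the 5 peroxisomal enzymes and of CPT1A in each of the 12 libraries, with the mean and SD of each group (n = 3) and library S4 as an open square. For HSD17B4, ACOX2, ACOX3 and ACAA1 the filled MDA-MB-468 sh-SOX9-AS1 points lie above the controls and the open square near them, and for CPT1A the filled points lie below.

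HADHA rose in this line without S4, with 339, 407 and 418 CPM in MDA-MB-468 sh-SOX9-AS1 libraries, against 326, 309 and 319 CPM in sh-CONTROL libraries. All 3 knockdown libraries exceeded the controls, S4 by the least (0.29 ± 0.11, adjusted p = 0.219, and 0.37 ± 0.08 without S4, adjusted p = 0.00123). HADHB had 140.5, 148 and 155 CPM in sh-SOX9-AS1 libraries and 165, 167 and 149 CPM in sh-CONTROL libraries, and did not pass in either fit. The auxiliary enzymes ECI2 and ECH1 rose without S4 by 0.51 ± 0.13 (adjusted p = 0.005) and 0.33 ± 0.08 (adjusted p = 0.00587), where all libraries gave 0.48 and 0.27 (adjusted p = 0.205 and 0.237), and in both genes all 3 knockdown libraries lay above the controls. ECI2 had 54.1, 55.3 and 62.7 CPM in sh-SOX9-AS1 libraries and 40.1, 34.9 and 48.3 CPM in sh-CONTROL libraries. ECH1 had 146, 175 and 164 CPM in sh-SOX9-AS1 libraries and 142, 129 and 132 CPM in sh-CONTROL libraries. ACADVL fell without S4, with 473, 396 and 380 CPM in sh-SOX9-AS1 libraries and 471, 455 and 453 CPM in sh-CONTROL libraries (-0.14 ± 0.11, adjusted p = 0.479, and -0.25 ± 0.08 without S4, adjusted p = 0.0163). HADH and ETFDH rose by 0.27 ± 0.09 and 0.29 ± 0.11 without S4 (adjusted p = 0.0287 and 0.038), where all libraries gave 0.19 and 0.17 (adjusted p = 0.354 and 0.491). The 23 remaining genes of that fit lay between -0.27 and 0.58, with 12 positive and 11 negative values.

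Over the whole pathway the summed level in MDA-MB-468 was 734.5, 746 and 726 CPM per kb in sh-SOX9-AS1 libraries and 729, 699 and 706 CPM per kb in sh-CONTROL libraries, groups that overlapped. The median log2 fold change of the 36 genes was 0.11 with all libraries and 0.10 without S4, while that of all genes was -0.00 in both fits. Summed basal markers ran from 6503 to 8889 CPM in sh-SOX9-AS1 libraries and from 8678 to 8813 CPM in sh-CONTROL libraries. Without S4, 7 of the 8 fell, against 20.7% of all genes. Luminal markers summed to 2541 to 3209 CPM in sh-SOX9-AS1 libraries and 2740 to 3040 CPM in sh-CONTROL libraries. Markers of other cell types summed to 17.4 to 25.9 CPM in sh-SOX9-AS1 libraries and 14.0 to 16.9 CPM in sh-CONTROL libraries. The part of these differences in the results was not tested.

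**Figure D4:**
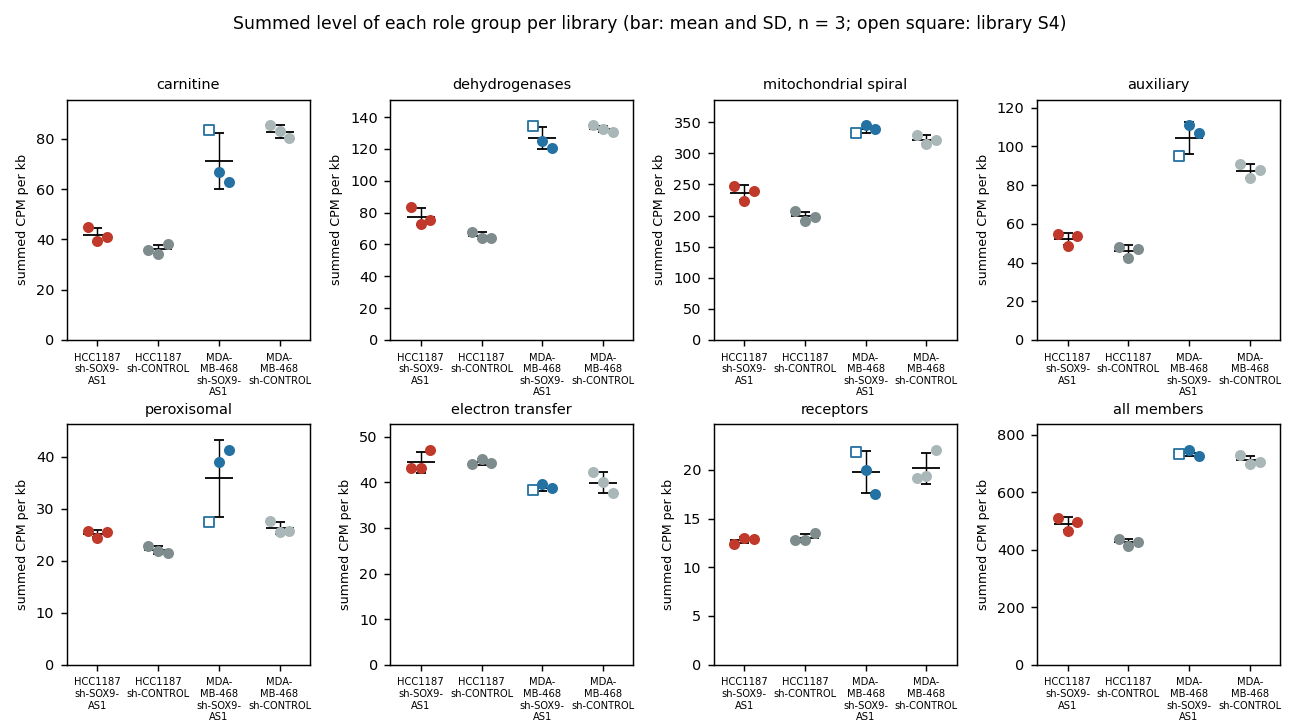
Summed level in CPM per kb of gene length of each role group and of all 37 genes in each library, with the mean and SD of each group (n = 3) and library S4 as an open square. The peroxisomal sum of S5 and S6 is 39.0 and 41.3 CPM per kb against at most 27.6 in the MDA-MB-468 controls, and the sum of all genes is higher in every HCC1187 sh-SOX9-AS1 library than in every HCC1187 sh-CONTROL library.

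Of the genes around the pathway in MDA-MB-468, none passed with all 6 libraries, where 1 of all 13638 genes did. Without S4, 7 of 10 uptake and activation genes rose and 1 fell, where 20% of all genes rose and 20.7% fell. ACSL1, which activates long-chain fatty acids to acyl-CoA, had 112, 315 and 318.5 CPM in sh-SOX9-AS1 libraries S4, S5 and S6, against 111, 113 and 104 CPM in sh-CONTROL libraries (1.19 ± 0.33, adjusted p = 0.205, and 1.53 ± 0.08 without S4, adjusted p = 2.07e-09). S4 was level with the controls and S5 and S6 were far above them. ACSL4, which prefers arachidonic acid, and LPIN1, a phosphatidate phosphatase and coactivator of PPARA, rose by 1.70 ± 0.11 and 1.97 ± 0.13 without S4 (adjusted p = 1.17e-08 and 1.68e-08), where all libraries gave 1.30 and 1.52 (adjusted p = 0.207 and 0.209). ANGPTL4, a secreted lipase inhibitor and PPAR target, fell by 2.31 on the log2 scale without S4 (adjusted p = 1.86e-07), where all libraries gave -0.66 (adjusted p = 0.582). It had 37.7, 5.45 and 4.64 CPM in S4, S5 and S6, against 24.7, 22.9 and 27.4 CPM in sh-CONTROL libraries. Here S4 lay above all controls, opposite to S5 and S6. Peroxisomal partners gave 7 rises and 2 falls among 21 without S4, including catalase, CAT (0.51 ± 0.08, adjusted p = 0.00015, and 0.37 with all libraries, adjusted p = 0.219). Branched-chain and odd-chain enzymes gave 8 rises and 2 falls among 15, led by PCCA of propionyl-CoA carboxylase (1.14 ± 0.12, adjusted p = 4.47e-06, and 0.85 with all libraries, adjusted p = 0.209). The malonyl-CoA and AMPK list gave 1 rise and 2 falls among 10, no more than the shares of all genes. PPAR partners and targets gave 2 rises and 5 falls among 11, and general mitochondrial genes no rise and 5 falls among 17.

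The lines were then compared by the interaction of line and shRNA, the HCC1187 effect minus the MDA-MB-468 effect. With all 12 libraries 3 of 36 genes differed, CPT2 and ECHS1 with a more positive effect in HCC1187 and HADHA with a more negative one, while all genes gave 1.24% higher and 2.52% lower calls. For CPT2 the difference was 0.81 ± 0.15 (adjusted p = 0.0103), for ECHS1 0.66 ± 0.14 (adjusted p = 0.0236) and for HADHA -0.53 ± 0.13 (adjusted p = 0.0357). The CPT2 call held in every alternative, that of ECHS1 was lost when any of 9 single libraries was left out, and that of HADHA when any library but S4 was left out and without scaling factors. Without S4, 5 genes had a higher difference and 5 a lower one, against 12.4% higher and 13.2% lower among all genes. The higher ones were CPT1A (1.25 ± 0.13, adjusted p = 1.01e-07), CPT2 (0.81 ± 0.15, adjusted p = 0.000199), ECHS1 (0.71 ± 0.13, adjusted p = 0.000306), ACADVL (0.56 ± 0.12, adjusted p = 0.000903) and ETFB (0.51 ± 0.18, adjusted p = 0.0327). The lower ones were CPT1B (-1.83 ± 0.44, adjusted p = 0.00251), HADHA (-0.62 ± 0.11, adjusted p = 0.000105), HSD17B4 (-0.49 ± 0.11, adjusted p = 0.00214), ECI2 (-0.48 ± 0.15, adjusted p = 0.0199) and ACOX2, whose HCC1187 counts of 0 to 5 per library leave the size of its difference undetermined. Of the genes around the pathway, with all 12 libraries, the AMPK subunit PRKAA2 (-0.91, adjusted p = 0.00703) and the peroxisomal factor PEX19 (-0.53, adjusted p = 0.0426) had a lower difference and DBT, of the branched-chain dehydrogenase complex, a higher one (0.69, adjusted p = 0.025).

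ACADVL rose in HCC1187 and fell in MDA-MB-468 without S4, and HADHA did the reverse. ACADVL is 1 of 8 rises in HCC1187 and 1 of 2 falls in MDA-MB-468, and HADHA 1 of 2 falls and 1 of 11 rises. In all, 21 of the 37 genes passed in at least 1 of these fits. Among all genes 9.78% rose and 13.1% fell in HCC1187, and 20% rose and 20.7% fell in MDA-MB-468 without S4. How many of all genes passed in at least 1 fit, or in opposite directions, was not counted. These overlaps are therefore no result about the pathway.

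The control libraries show how the lines differ without SOX9-AS1 knockdown, and they are the same libraries that serve as controls of the knockdown comparisons. Of 36 genes tested, 11 were higher and 20 lower in HCC1187 than in MDA-MB-468, where all genes gave 43.6% higher and 40.4% lower calls. The median log2 difference, HCC1187 over MDA-MB-468, was -0.34 in the pathway and 0.06 over all 15592 genes. Summed over the 37 genes the level was 438, 412 and 426 CPM per kb in HCC1187 sh-CONTROL libraries and 729, 699 and 706 CPM per kb in MDA-MB-468 sh-CONTROL libraries. Carnitine genes summed to 36.1 ± 1.9 CPM per kb in HCC1187 and 83.0 ± 2.5 CPM per kb in MDA-MB-468, and acyl-CoA dehydrogenases to 65.4 ± 2.3 and 132 ± 2.2 CPM per kb in the same order of lines (SD, n = 3 each). The peroxisomal sums were closer, 22.1 ± 0.72 CPM per kb in HCC1187 and 26.3 ± 1.2 CPM per kb in MDA-MB-468. The line cannot be told apart from its culture medium or its count table.

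**Figure D5:**
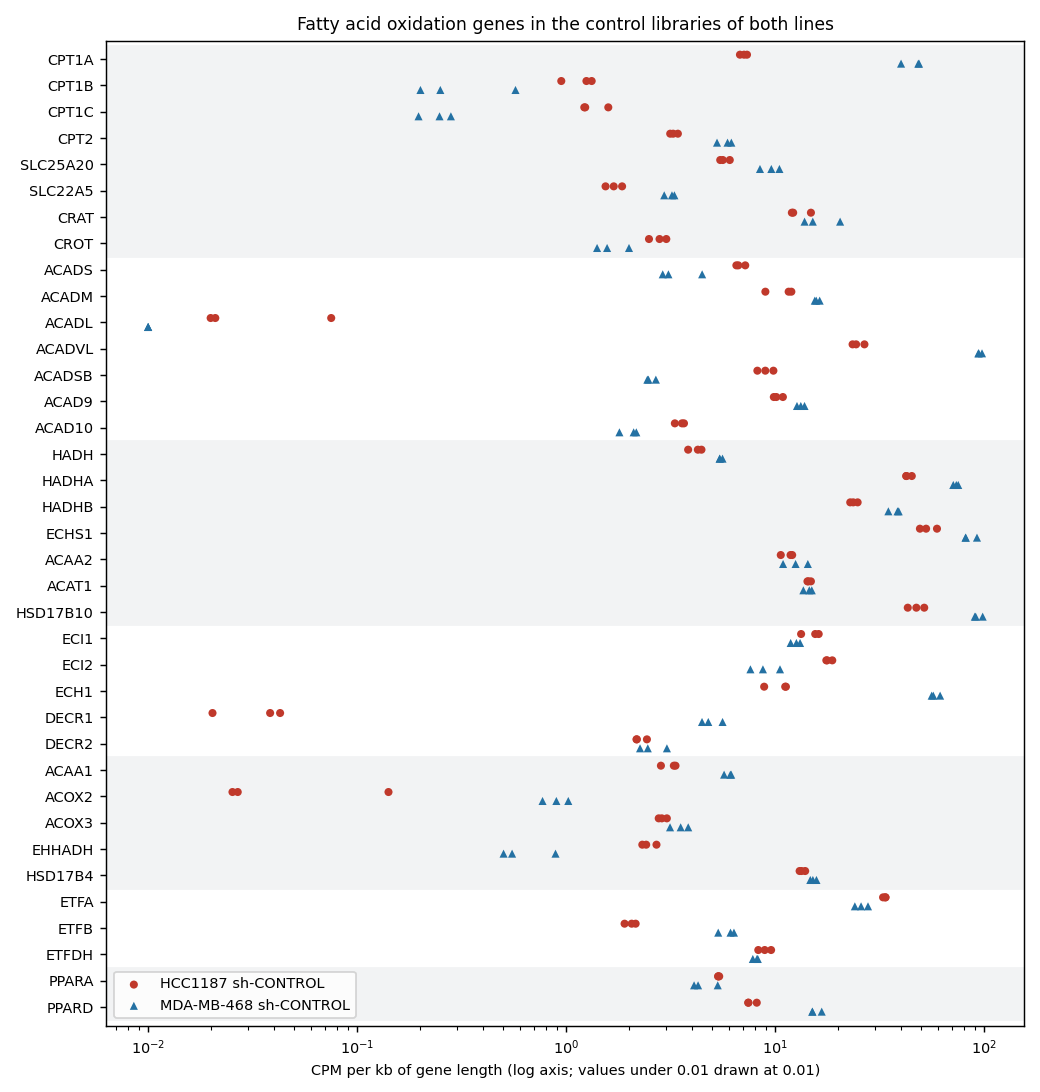
Level of each of the 37 genes in the 3 control libraries of HCC1187 (circles) and of MDA-MB-468 (triangles), in CPM per kb of gene length on a log axis. DECR1, ACOX2 and ACADL are near the floor in HCC1187, ACADL is at 0 in MDA-MB-468, and CPT1A, ECH1 and ACADVL lie far to the right in MDA-MB-468.

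The 3 CPT1 forms were distributed differently. CPT1A was at 48.2, 44.6 and 46.7 CPM in HCC1187 sh-CONTROL libraries, against 321, 318 and 263 CPM in MDA-MB-468 sh-CONTROL libraries, a 6.41-fold lower level (log2 difference -2.68 ± 0.09, adjusted p = 3.37e-17). CPT1C was the reverse, with 7.17, 7.24 and 9.34 CPM in HCC1187 and 1.45, 1.65 and 1.15 CPM in MDA-MB-468 (2.48 ± 0.25, adjusted p = 7.4e-09), and CPT1B likewise, with 5.13, 3.89 and 5.44 CPM in HCC1187 and 2.35, 0.824 and 1.03 CPM in MDA-MB-468 (1.74 ± 0.31, adjusted p = 2.37e-05). In none of the 3 did the lines overlap. Per kb, CPT1A still led in HCC1187, at a mean of 7.08 CPM per kb against 1.35 for CPT1C and 1.175 for CPT1B. CPT2 was lower in HCC1187 controls (-0.81 ± 0.10, adjusted p = 8.86e-08), and after knockdown its 50.2 to 60.2 CPM in HCC1187 compares with 53.2 to 62.3 CPM in MDA-MB-468 controls. ECHS1 showed the same layout, lower in HCC1187 controls (-0.65 ± 0.09, adjusted p = 6.3e-07) and at 104 to 118 CPM both in HCC1187 sh-SOX9-AS1 libraries and in MDA-MB-468 sh-CONTROL libraries.

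DECR1, the mitochondrial reductase needed for most polyunsaturated chains, was the most unequal gene of the pathway. It had 2, 2 and 1 counts in HCC1187 sh-CONTROL libraries, against 253, 176 and 176 counts in MDA-MB-468 sh-CONTROL libraries. The ratio of summed levels, HCC1187 over MDA-MB-468, was 0.00677, with an exact binomial 95% interval of 0.00219 to 0.0159 that covers counting error only. ACOX2 had 7 summed counts in HCC1187 sh-CONTROL libraries and 83 in MDA-MB-468 sh-CONTROL libraries, a ratio of 0.0691 (0.0269 to 0.149). ACADL had 6 summed counts in HCC1187 sh-CONTROL libraries and 0 in all MDA-MB-468 libraries, where 0 counts allow up to 0.336 to 0.475 CPM in a library. These 3 genes were thus hardly detected in 1 line or both.

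Among the other dehydrogenases ACADVL was lower in HCC1187, at 118, 113 and 129 CPM against 471, 455 and 453 CPM in MDA-MB-468 (-1.93 ± 0.07, adjusted p = 5.2e-16), and ACADM slightly lower (-0.53 ± 0.10). ACADSB was higher in HCC1187, at 61.2, 56.0 and 51.3 CPM against 15.4, 16.8 and 15.3 CPM in MDA-MB-468 (1.84 ± 0.11, adjusted p = 9.68e-13), as were ACADS (0.98 ± 0.16) and ACAD10 (0.81 ± 0.11). ECH1 was at 25.95, 20.4 and 25.8 CPM in HCC1187 and 142, 129 and 132 CPM in MDA-MB-468 (-2.47 ± 0.10, adjusted p = 7.25e-16). In the same class ECI2 was higher in HCC1187 (1.02 ± 0.10, adjusted p = 6.28e-09) and DECR2 did not pass (-0.19 ± 0.16). EHHADH was higher in HCC1187, at 12.6, 11.2 and 10.8 CPM against 4.14, 2.34 and 2.57 CPM in MDA-MB-468 (1.92 ± 0.21, adjusted p = 2.61e-08), and ACAA1 lower (-0.91 ± 0.11, adjusted p = 5.5e-08). ETFB was lower in HCC1187, at 14.0, 12.4 and 13.4 CPM against 39.9, 41.5 and 34.9 CPM in MDA-MB-468 (-1.53 ± 0.12, adjusted p = 7.01e-11), and ETFA higher (0.38 ± 0.08, adjusted p = 8.63e-05). PPARD was lower (-1.01 ± 0.09, adjusted p = 1.38e-09) and PPARA higher (0.24 ± 0.10, adjusted p = 0.0225).

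HADHA and HADHB were both lower in HCC1187 (-0.75 ± 0.07 and -0.64 ± 0.08, adjusted p = 1.91e-09 and 9.26e-08). HSD17B10, a hydroxyacyl-CoA dehydrogenase also part of mitochondrial RNase P, had 57.5, 47.97 and 52.7 CPM in HCC1187 sh-CONTROL libraries, against 109.5, 100.4 and 101 CPM in MDA-MB-468 sh-CONTROL libraries. SLC22A5, the carnitine importer, had 19.8, 21.6 and 23.7 CPM in HCC1187 sh-CONTROL libraries, against 41.1, 42.2 and 37.7 CPM in MDA-MB-468 sh-CONTROL libraries. SLC25A20, the carnitine carrier, had 11.5, 10.4 and 10.7 CPM in HCC1187 sh-CONTROL libraries, against 19.9, 16.1 and 18.2 CPM in MDA-MB-468 sh-CONTROL libraries. These 3 were lower in HCC1187, without overlap, by log2 differences of -0.96, -0.88 and -0.73. HADH, for short-chain hydroxyacyl-CoA, had 51.6, 53.7 and 46.4 CPM in HCC1187 sh-CONTROL libraries, against 65.7, 67.7 and 65.7 CPM in MDA-MB-468 sh-CONTROL libraries. ACAD9, the complex I assembly factor, had 47.1, 43.9 and 42.7 CPM in HCC1187 sh-CONTROL libraries, against 59.9, 55.1 and 57.5 CPM in MDA-MB-468 sh-CONTROL libraries. CRAT, the carnitine acetyltransferase, had 46.5, 45.8 and 56.5 CPM in HCC1187 sh-CONTROL libraries, against 52.7, 57.7 and 77.96 CPM in MDA-MB-468 sh-CONTROL libraries. They too were lower in HCC1187 (-0.38, -0.36 and -0.33), with CRAT overlapping between the lines, and HSD17B4 was lower by the least (-0.17), a call lost in 7 alternatives whose direction turned, to 0.0691, without scaling factors. CROT, the peroxisomal octanoyltransferase, had 13.9, 15.02 and 12.4 CPM in HCC1187 sh-CONTROL libraries, against 9.96, 7.005 and 7.82 CPM in MDA-MB-468 sh-CONTROL libraries. ECI1, a mitochondrial isomerase, had 49.9, 42.7 and 51.8 CPM in HCC1187 sh-CONTROL libraries, against 38.04, 40.5 and 42.2 CPM in MDA-MB-468 sh-CONTROL libraries. Both were higher in HCC1187 (0.74 and 0.27). ACAA2, ACAT1, DECR2, ACOX3 and ETFDH did not pass, between -0.27 and 0.15. Of the 31 calls, 25 held in all alternatives, and those of CRAT, ECI1, HSD17B4, PPARA, ACAD9 and HADH were lost in at least 1. Around the pathway ACSL4 (3.05 ± 0.09), PRKAB2 (1.33 ± 0.09) and ACACA, which makes malonyl-CoA (1.14 ± 0.07), were higher in HCC1187, and CAT (-2.90 ± 0.09), MLYCD (-1.94 ± 0.13) and PLIN2, a coat protein of lipid droplets (-2.96 ± 0.11), were lower. Uptake and activation gave 3 higher and 9 lower among 12, the malonyl-CoA and AMPK list 6 and 3 among 10, PPAR partners and targets 2 and 7 among 12, peroxisomal partners 7 and 10 among 22, branched-chain and odd-chain enzymes 4 and 7 among 15, and general mitochondrial genes 8 and 6 among 17. All genes gave 43.6% higher and 40.4% lower calls, and the 47.1% and 35.3% of general mitochondrial genes were near those shares.

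Overlapping genes limit these counts. In the GENCODE annotation of GRCh38 22 of the 37 genes overlap a gene on the opposite strand, HADHA and HADHB among them, and no source used here states whether counting took strand into account. SLC25A20 and HADHA have pseudogenes named after them, whose reads the counting could split.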

How the data were processed

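RNA was measured by paired-end RNA-seq (76 bp, given as fragment size, and a stranded TruSeq mRNA kit, per the labels' protocols) in 12 libraries of 4 groups. The authors deposited 1 table of counts per gene for each line, with 60675 genes. Per the submitters' processing notes the tools were featureCounts 2.0.0, HISAT2 2.1.0, Trimmomatic 0.39, SAMtools, MultiQC 1.11 and FastQC 0.11.9, with GRCh38. No source used here states their parameters, the annotation or the strand setting. Each library has columns for 3 lanes. Only lane 1 was used, with 1 column per library, and 24 of 36 count columns were not. The column numbers match no sample label. Groups follow the shared sample descriptions; the word BLANCO in the knockdown columns has no explanation in the labels. S4 is in the count table but is not listed in the deposited phenotype table.

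Low genes were removed with filterByExpr (at least 10 counts, total of at least 15), libraries were scaled by TMM, and each line was tested with glmQLFTest of edgeR 4.0.16 (R 4.3.3). The control libraries of both lines were tested in the same way, and the difference between lines as an interaction over 12 libraries. P-values were adjusted by Benjamini-Hochberg over all genes tested and called under 0.05. Printed errors of log2 fold changes are standard errors worked back from the test, the absolute log2 fold change over the square root of its F statistic. They are unreliable for genes with few counts. DESeq2 1.42.0 was an alternative, beside RLE scaling, no filter, a joint fit and leaving out each library. Library totals without scaling factors were added after seeing the data. Scripts were tested on simulated data. CPM per kb uses the deposited gene lengths. Members and lists, 94 genes in 6 lists around the pathway included, were chosen with earlier results of these data known. Every member is accounted for; values per library are given mainly for members that passed a test, and genes named around the pathway are among the 3 of smallest p in their list. Counting intervals and floors (3 counts, per library) are at 95% and cover counting error only.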

Additional observations from a re-analysis of the deposited data

Results flagged for a closer look

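The effect of the knockdown differed between the lines for 3 genes by the interaction test of edgeR over 12 libraries. Among all genes 1.24% had a higher and 2.52% a lower difference by the same test. CPT2 had a difference, HCC1187 effect minus MDA-MB-468 effect, of 0.81 on the log2 scale, with an effect of 0.70 in HCC1187 and -0.09 in MDA-MB-468. ECHS1 had a difference of 0.66, with an effect of 0.69 in HCC1187 and 0.04 in MDA-MB-468. For HADHA the difference was -0.53, with an effect of -0.25 in HCC1187 and 0.29 in MDA-MB-468. Without library S4 the differences were 0.81, 0.71 and -0.62. Only the CPT2 call held in every alternative, while that of ECHS1 was lost in 9 and that of HADHA in 12.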

How the results depend on the processing

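Members called in HCC1187 were 10 in the fit reported, 8 to 13 under RLE scaling, DESeq2, no filter and library totals, 5 in a joint fit of all 12 libraries and 6 to 11 with 1 library left out, the lowest without S7. In MDA-MB-468 0 were called, 5 without a filter, 1 in the joint fit and 0 to 13 with 1 library left out, the 13 without S4. For the difference between lines 3 were called, 5 without a filter and 1 to 10 with 1 library left out, with 1 call without S1, S2, S3, S5, S6, S8, S9, S10 or S12 and 10 without S4. Library totals left 2 higher and none lower there, and moved the share of higher calls among all genes to 46.9%, against 33% with TMM. In HCC1187 that share was 57.7% with library totals and 42.8% with TMM. Between the control libraries 31 were called, and 28 to 31 under the alternatives. Library totals moved the median log2 difference of all genes there to 0.29, against 0.06, and the median of members less that of all genes was -0.40 under both. HSD17B4 turned to 0.0691 with library totals, against -0.17. Of the single members followed, this was the only change of direction under any alternative. The cause of these changes was not tested. No paired analysis was possible because the count columns carry no replicate number. Genes with few counts, DECR1, ACOX2 and ACADL in HCC1187, are limited by depth, of which only lane 1 of 3 was used.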

Other observations

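In HCC1187 3 members were too low for the filter. DECR1 had 13 summed counts in sh-SOX9-AS1 libraries and 5 in sh-CONTROL libraries, a ratio of summed levels of 3.01 with an exact binomial 95% interval of 1.01 to 10.8. ACADL had 16 summed counts in sh-SOX9-AS1 libraries and 6 in sh-CONTROL libraries, a ratio of 3.08 (1.15 to 9.62). ACOX2 had 1 and 7 summed counts in the same order of groups, a ratio of 0.165 (0.00367 to 1.29). The intervals cover counting error only.

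The genes beside DECR1 on chromosome 8 were looked at after its values were seen. NBN, which overlaps it on the opposite strand, had 55.6, 61.3 and 49.9 CPM in HCC1187 sh-CONTROL libraries and 72.2, 73.5 and 58.2 CPM in MDA-MB-468 sh-CONTROL libraries. OSGIN2 had 20.3, 25.4 and 24.4 CPM in HCC1187 sh-CONTROL libraries and 35.5, 30.6 and 32.4 CPM in MDA-MB-468 sh-CONTROL libraries. RIPK2 had 34.3, 34.8 and 40.9 CPM in HCC1187 and 31.3, 33.0 and 36.6 CPM in MDA-MB-468. These 3 genes lie on the side where DECR1 starts. CALB1, the next protein-coding gene on the other side, was near 0 in both lines, with 0.0968, 0 and 0.103 CPM in HCC1187 sh-CONTROL libraries and 0.671, 0.137 and 0.385 CPM in MDA-MB-468 sh-CONTROL libraries. DECR1 itself had 0.194, 0.216 and 0.103 CPM in HCC1187 sh-CONTROL libraries and 28.3, 24.2 and 22.6 CPM in MDA-MB-468 sh-CONTROL libraries. TMEM64 had 31.4, 36.4 and 27.7 CPM in HCC1187 sh-CONTROL libraries and 7.27, 8.79 and 5.39 CPM in MDA-MB-468 sh-CONTROL libraries, higher in HCC1187 where DECR1 was lower. Between shRNA arms, TMEM64 was also lower in HCC1187 sh-SOX9-AS1 libraries, at 11.1, 13.2 and 12.3 CPM. In MDA-MB-468 its knockdown log2 fold change was -0.79 ± 0.25 with all libraries and did not pass edgeR's quasi-likelihood test (adjusted p = 0.207).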
